A study of Mus musculus with 6 samples.

Results

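The WNT ligands, their receptors and co-receptors, their secreted antagonists and the feedback genes of the pathway were examined in mouse epiblast stem cells (EpiSCs) with and without Dicer. Members were the genes whose array symbol named a WNT, a frizzled (FZD), an SFRP, a DKK, LRP5, LRP6, an axin, a TCF/LEF factor, an NKD, an LGR, SP5, RNF43, ZNRF3, NOTUM or β-catenin. Of 20193 genes with 1 symbol on the array, 55 were members, represented by 1 probe set each: 19 ligands, 10 frizzled receptors, 7 co-receptors and regulators of receptor turnover, 9 secreted antagonists, 5 genes of the β-catenin, axin and NKD group and 5 nuclear factors. Of the 55, 53 had a single probe set. Wnt4 and Notum had 1 further probe set, and that of higher mean signal was used. The rule itself uses gene names and no measured value, although it was set with earlier results of these data known.

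EpiSCs are primed pluripotent cells that correspond to the epiblast after implantation, and Dicer is the enzyme that releases mature microRNAs by cleaving their hairpin precursors. The Dicer -/- cells were derived from Dicer fx/fx EpiSCs by 0.3 µM 4-OH-tamoxifen for 3 days, then 2 drug-free days, with RNA collection on day 5. The Dicer fx/fx controls carried the same floxed alleles and were handled in parallel but never received tamoxifen, so the drug and the deletion cannot be told apart. The medium of every sample contained Activin at 20 ng/ml and bFGF at 12 ng/ml. There were 3 deletion experiments, numbered 18, 19 and 20, each with 1 deleted and 1 control sample, which gave 6 arrays with median intensities of 247.7 to 260.1. The promoter of the recombinase and the number of EpiSC lines used are not given in the sources used here.

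WNT proteins are lipid-modified ligands that bind a frizzled receptor together with LRP5 or LRP6. Binding stops the destruction complex, built on axin, from marking β-catenin for degradation, and β-catenin then enters the nucleus and activates genes with TCF/LEF factors. Many of the genes activated in this way encode regulators of the pathway itself, most of them inhibitors. Axin2, Nkd1, Dkk1, Sp5, Lgr5, Rnf43, Znrf3 and Notum thus serve as readouts as well as regulators, and of these Lgr5 is not an inhibitor. In the embryo Wnt3 and this feedback act at the start of the primitive streak, and primed pluripotent cells in culture hold a mixed population in which some cells switch on streak genes.

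The deletion was checked first. Dicer1 had an intensity of 601.6, 553.1 and 645.4 in deleted cells of experiments 18, 19 and 20, against 1836, 2079 and 2098 in controls, and every sample followed its label. The signal left in deleted cells was 29.9% of that in controls. Over 12 primed epiblast markers the summed intensity was 56722, 59963 and 46817 in deleted cells, against 52522, 57757 and 59611 in controls, so that it was lower with deletion in experiment 20 alone. There Nanog was at 1915 in deleted cells and 4518 in the control, and Pou5f1 at 6268 in deleted cells and 7477 in the control. Experiment 20 stood apart in both of its samples: the summed intensity of 12 primitive streak and mesoderm markers was 21347 in its deleted cells and 25037 in its control, against 4562 and 5625 in deleted cells and 3821 and 4659 in controls of experiments 18 and 19. For 11 endoderm markers the sums were 16939 in deleted cells and 19066 in the control of experiment 20, against 3233 and 7178 in deleted cells and 2796 and 5608 in controls of the others. The brighter genes carry these sums. Controls differed by more than 1 log2 unit for 6 of the 12 streak genes and 6 of the 11 endoderm genes. Tbx6, Mesp1, Msgn1 and Hand1 were 0.659-fold to 1.04-fold in control 20 against the other controls, and Sox7, Afp, Ttr and Amn 0.998-fold to 1.08-fold. With deletion in experiment 20, T, Tbx6 and Msgn1 were higher, T at 11797 against 7004, and the other streak genes lower. Over 10 neural ectoderm markers the sums were 5735, 7246 and 8220 in deleted cells, against 4847, 6739 and 6205 in controls. Controls differed by more than 1 log2 unit for 2 of them. Of these, Fabp7 was high in experiment 20, at 3326 in deleted cells and 2011 in the control. For 10 naive markers the sums were 2213, 2261 and 1999 in deleted cells, against 2159, 2617 and 1745 in controls. The fibroblast and feeder list summed to between 6987 and 8376 in deleted cells and between 3927 and 7302 in controls, mostly through Acta2. In this list 3 of 9 genes, Acta2, Dcn and Pdgfrb, were higher in deleted cells in all 3 experiments, beside 15.2% of all genes. In all 3 experiments 0 were lower, beside 28.3%. Col1a1 was at 390.1 to 403.1 in deleted cells and 385.8 to 430.6 in controls. The part of such cells in the results was not tested.

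No member passed the test over all genes. Between deleted and control cells the mean log2 difference lay between -0.27 and 0.39 for all 55 members, and 0 had an adjusted p under 0.05 in limma, a linear model fitted over all 20193 genes with Benjamini-Hochberg adjustment. The background was low too: Dicer1 was the 1 gene called, 0.00495% of those tested. With the experiment as a block, which compares the arrays within each experiment, 0 members and 0 of all genes passed, and the smallest adjusted p among members was 0.159. With 3 arrays per group, differences of this size were below what these fits could call, so missing the threshold does not show that the groups were alike. The median difference over members was -0.03, beside -0.04 over all genes. At an unadjusted p under 0.05 limma counted 3 members, beside 6% of all genes: 1 was higher, beside 2.22% of all genes, and 2 were lower, beside 3.77%. With the block there were 13 members, beside 17.1% of all genes: 7 were higher, beside 8.04%, and 6 lower, beside 9.05%. A difference of at least 0.3 in size and of 1 direction in all 3 experiments was found for 6 members, beside 6.69% of all genes.

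**Figure D1:**
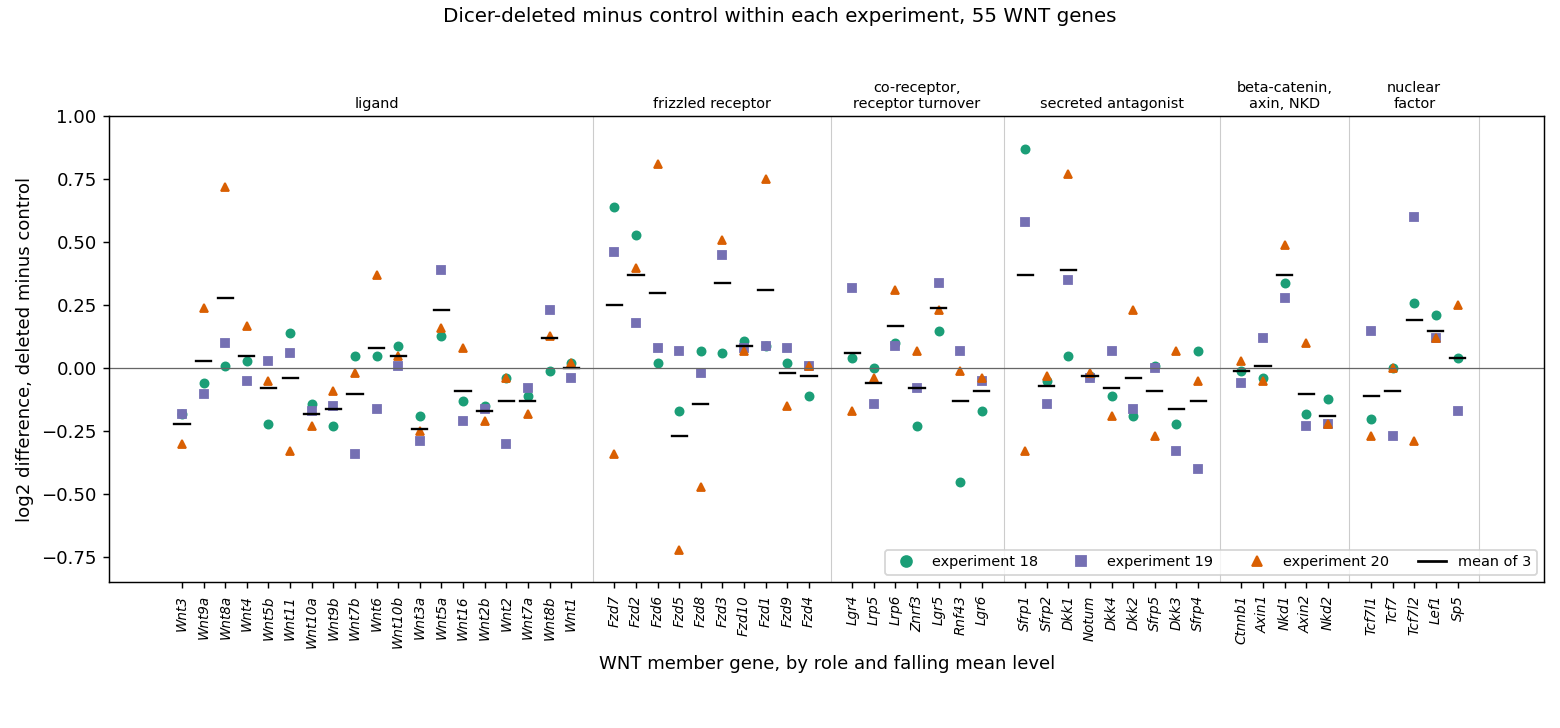
Log2 difference of deleted minus control (y axis, log2 units) for each of the 55 WNT genes (x axis), within experiments 18, 19 and 20 (coloured points) and as their mean (black bar). The largest means, up to 0.39, belong to receptors, Dkk1, Sfrp1 and Nkd1, and several genes have experiment 20 on the other side of zero from experiments 18 and 19.

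The small differences were spread unevenly over the roles, which was not tested. Among the 10 frizzled genes 5 were higher in deleted cells in all 3 experiments and 0 were lower in all 3, with a median difference of 0.17. Among the 19 ligands 3 were higher and 7 lower in all 3, with a median of -0.08. Over all genes 15.2% were higher in all 3 experiments and 28.3% lower. The 13 members higher in all 3 and the 13 lower in all 3 also divided by signal: 11 of the 29 members at or above the median signal of all genes were higher in all 3, beside 23.3% of genes in that range, and 4 were lower, beside 21.6%. Of the 26 dimmer members 9 were lower in all 3, beside 34.9% of dim genes, and 2 were higher, beside 7.1%. Of the 19 ligands 14 were dim, against 2 of the 10 frizzled genes, so role and signal strength overlapped in this comparison.

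The ligands were examined next. Wnt3, the ligand that starts the primitive streak, had an intensity of 948.6, 787.8 and 844.6 in deleted cells of experiments 18, 19 and 20, against 1076, 894.4 and 1037 in controls. It was lower within every experiment, although the 2 groups overlapped. The mean difference was -0.22 ± 0.11 (SE of the fit, n = 3 arrays per group, limma adjusted p = 0.837), and with the block the SE was 0.06 and the adjusted p 0.22. Wnt3a, which acts in the streak and tail bud, had 181.4, 163.9 and 175.8 in deleted cells, against 207.2, 200.4 and 208.8 in controls. Every deleted sample lay below every control, with a difference of -0.24 ± 0.06 and a limma adjusted p of 0.824, or 0.199 with the block. Wnt10a had 278.7, 246.8 and 263.4 in deleted cells and 307.7, 278.2 and 309.8 in controls, a difference of -0.18 ± 0.08 with an adjusted p of 0.831.

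The other 2 ligands without overlap between groups were Wnt2b and Wnt9b, which were picked out by their values, at -0.17 ± 0.07 and -0.16 ± 0.07. Groups without overlap and lower with deletion were found for 3 members in all, beside 9.93% of all genes. Wnt3a, Wnt10a, Wnt2b and Wnt9b lay below the median signal, where the median difference of all genes was -0.05. Wnt5a, a ligand mainly of β-catenin-independent signalling and also picked out by its values, was at 0.23 ± 0.31, with an SE of 0.08 with the block. It had 133.8, 172.6 and 242.1 in deleted cells against 121.9, 131.8 and 216.9 in controls. Leaving aside Wnt8a, described next, the remaining 12 ligands ranged between -0.13 and 0.12.

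**Figure D2:**
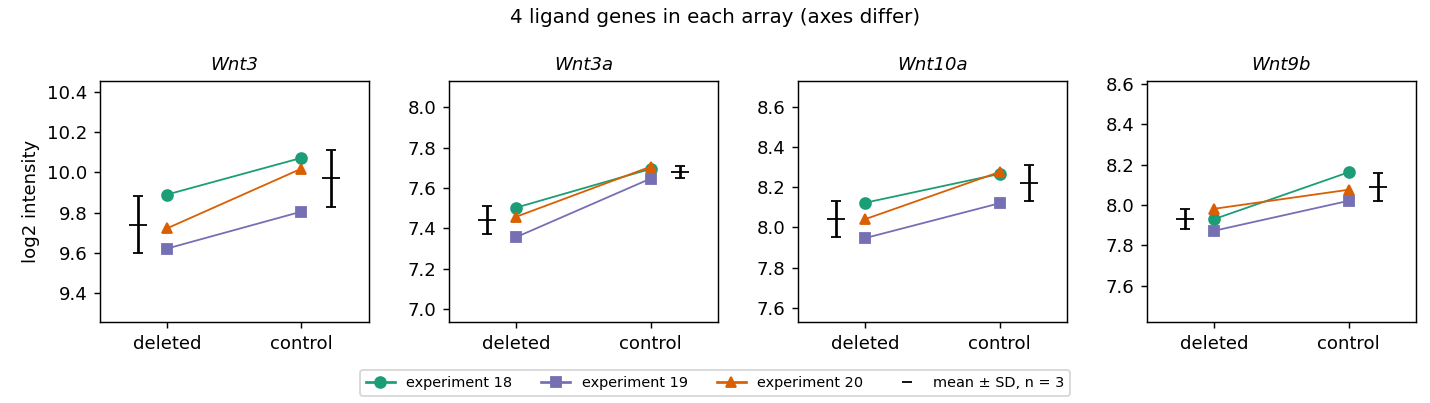
Log2 intensity (y axis) of Wnt3, Wnt3a, Wnt10a and Wnt9b in deleted and control samples, with lines joining the 2 samples of an experiment and black bars for mean ± SD, n = 3. All lines run lower on the deleted side, by differences between 0.09 and 0.30 log2 units.

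Wnt8a, a ligand of the early streak, varied between experiments far more than with deletion. Its intensity was 231.0, 273.3 and 1234 in deleted cells, against 229.0, 254.7 and 749.9 in controls. Within experiments 18, 19 and 20 the difference was 0.01, 0.10 and 0.72, so the mean of 0.28 ± 0.79 (limma adjusted p = 0.993) came mostly from experiment 20. With the block its SE was 0.15 and the limma adjusted p 0.401. Without experiment 20 the mean was 0.06.

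The frizzled genes, which encode the seven-pass receptors for WNT proteins, held the most frequent higher signals. Fzd2 had an intensity of 1903, 2616 and 2579 in deleted cells of experiments 18, 19 and 20, against 1319, 2307 and 1951 in controls. It was higher within each experiment, by 0.53, 0.18 and 0.40, while the controls themselves ranged over 0.81 log2 units. The mean difference of 0.37 ± 0.24 had a limma adjusted p of 0.884, and 0.188 with the block, whose 95% interval was 0.15 to 0.59. Fzd3, best known for axon guidance and planar polarity, had 790.8, 1016 and 979.1 in deleted cells, against 758.2, 744.0 and 685.4 in controls. All deleted samples lay above all controls, and the difference was 0.34 ± 0.11 with an adjusted p of 0.825, or 0.24 with the block.

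Fzd6 and Fzd1 were higher chiefly in experiment 20. Fzd6, another planar polarity receptor, had 1308, 1375 and 2114 in deleted cells, against 1291, 1305 and 1209 in controls; the groups did not overlap, but the differences were 0.02, 0.08 and 0.81. Its mean difference was 0.30 ± 0.19 (limma adjusted p = 0.876). Fzd1 had 438.3, 489.6 and 1116 in deleted cells, against 410.9, 459.2 and 662.2 in controls, with differences of 0.09, 0.09 and 0.75. Its mean difference was 0.31 ± 0.40 (limma adjusted p = 0.957), and with the block the SE was 0.15 and the adjusted p 0.353. Without experiment 20 the difference was 0.09. Fzd3 and Fzd6 were the 2 members with groups that did not overlap on the higher side, beside 3.26% of all genes. Fzd10, the remaining frizzled gene higher in all 3 experiments, was at only 0.09 ± 0.10. Fzd4 and Fzd9 were at -0.03 and -0.02, with mixed directions.

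Fzd7, a receptor that is prominent in pluripotent cells, went in opposite directions between experiments. It had 3065, 3974 and 1851 in deleted cells of experiments 18, 19 and 20, against 1965, 2882 and 2345 in controls, which gave differences of 0.64, 0.46 and -0.34. Over all 3 experiments the mean was 0.25 ± 0.31 (limma adjusted p = 0.954), and with the block the SE was 0.20 and the adjusted p 0.545. With experiment 20, the one of opposite sign, left out and the block kept, Fzd7 was called higher, at 0.55 ± 0.08 with a limma adjusted p of 0.0294. This fit rests on the arrays of experiments 18 and 19 alone. It leaves 1 residual degree of freedom per gene, so its SE depends strongly on the variance shared over all genes. The same fits without experiment 18 or without experiment 19 called 0 genes. In the fit without experiment 20, 388 genes were called, 1.92% of those tested, and 2 members were, the other being Sfrp1. Both were higher, beside 1.55% of all genes called higher. Fzd8, in contrast, was lower with deletion where its signal was highest. It had 460.9, 662.2 and 1703 in deleted cells, against 440.6, 672.1 and 2352 in controls, with a difference of -0.47 in experiment 20 and of 0.07 and -0.02 in the others. Fzd5, named after its values were seen, likewise had its 1 large difference, -0.72, in experiment 20, with 1003 in deleted cells against 1654 in the control. The part that the higher streak and endoderm markers of experiment 20 had in these opposite differences was not tested.

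**Figure D3:**
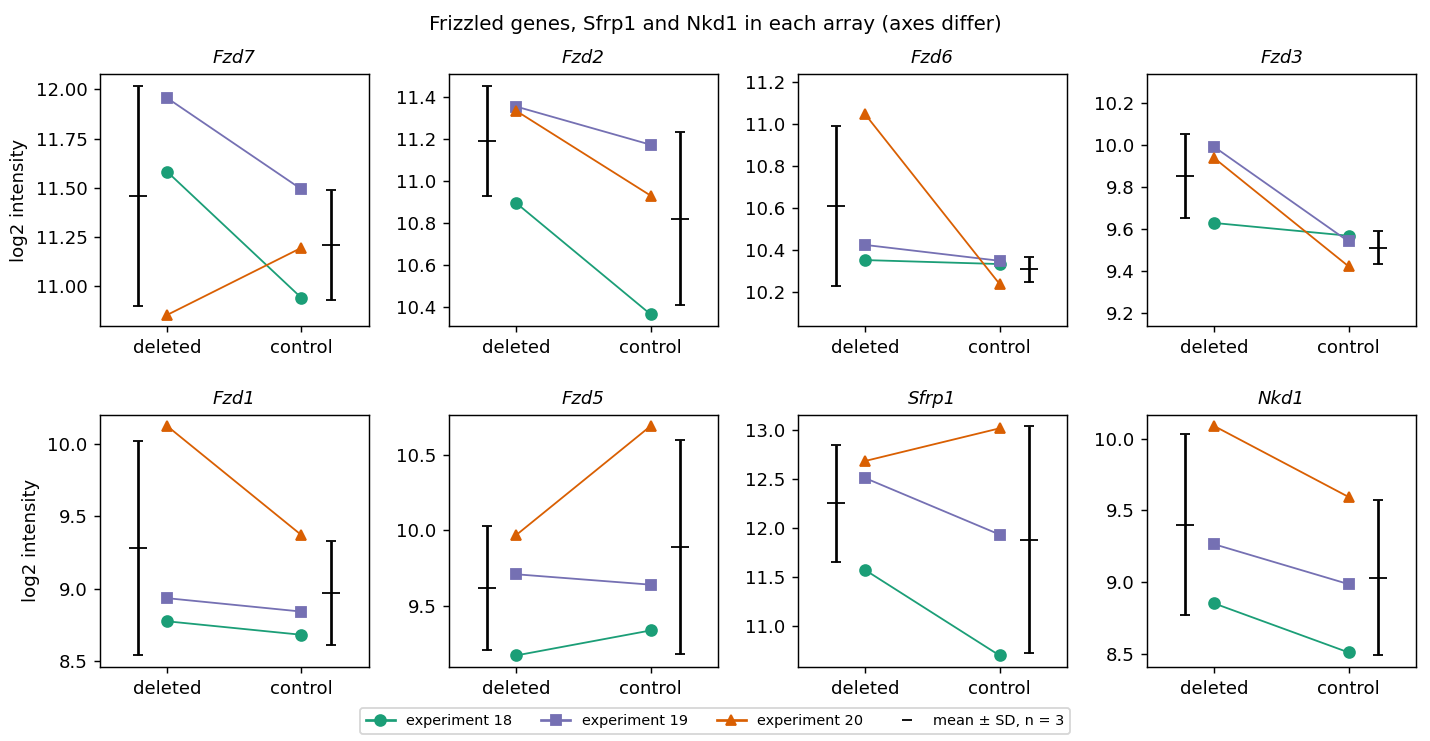
Log2 intensity (y axis, scale differs by panel) of 6 frizzled genes, Sfrp1 and Nkd1 in deleted and control samples, with lines joining the 2 samples of an experiment and black bars for mean ± SD, n = 3. Fzd2, Fzd3 and Nkd1 are higher on the deleted side in each experiment, Fzd6 and Fzd1 mainly in experiment 20, and Fzd7 and Sfrp1 turn direction in experiment 20.

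The co-receptors and the genes that set receptor turnover had mean differences of -0.13 to 0.24. Lrp5 and Lrp6, the LDL-receptor-related partners of frizzled, were at -0.06 ± 0.15 and 0.17 ± 0.11. Lgr4, which binds R-spondins and thereby protects frizzled receptors from removal, had 4407, 5024 and 2951 in deleted cells, against 4298, 4037 and 3309 in controls. Its differences of 0.04, 0.32 and -0.17 had mixed directions. Rnf43 and Znrf3, the ubiquitin ligases that take frizzled receptors off the surface, were at -0.13 ± 0.25 and -0.08 ± 0.12. The difference of Rnf43 was -0.45 in experiment 18, and 0.07 and -0.01 in experiments 19 and 20. Lgr6 was at -0.09 ± 0.08.

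Lgr5, the R-spondin receptor that marks cells with active WNT signalling in several tissues, had the widest spread between cultures of any member. Its intensity was 144.1, 260.5 and 2932 in deleted cells, against 130.2, 205.6 and 2492 in controls, so both samples of experiment 20 were high, 15.1-fold above the geometric mean of the other 2 deleted samples and 15.2-fold above that of the other 2 controls. Within experiments it was higher with deletion by 0.15, 0.34 and 0.23. The mean difference of 0.24 had an SE of 1.58 without the block and 0.07 with it, and the limma adjusted p was 0.998 and 0.22.

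Among the secreted antagonists, Sfrp1, which binds WNT proteins outside the cell, followed the pattern of Fzd7. It had 3039, 5828 and 6581 in deleted cells of experiments 18, 19 and 20, against 1661, 3909 and 8291 in controls, with differences of 0.87, 0.58 and -0.33. The mean was 0.37 ± 0.64 (limma adjusted p = 0.979), and with the block the SE was 0.24 and the adjusted p 0.461. On experiments 18 and 19 alone, with the block, Sfrp1 was called higher, at 0.72 ± 0.09 with a limma adjusted p of 0.0222. That fit leaves out the experiment of opposite sign, and its SE again depends strongly on the variance shared over all genes. Dkk1, which blocks LRP5 and LRP6, had 465.6, 1197 and 5297 in deleted cells, against 449.9, 940.3 and 3117 in controls. It was higher in each experiment, by 0.05, 0.35 and 0.77, while the controls themselves ranged over 2.79 log2 units. The mean difference was 0.39 ± 1.10 with a limma adjusted p of 0.993; with the block the SE was 0.14 and the adjusted p 0.278. Without experiment 20 the difference was 0.20. The other 7 antagonists, among them Notum, a lipase that removes the lipid from WNT proteins, were at -0.16 to -0.03.

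Inside the cell, the transcript of β-catenin itself differed little. Ctnnb1 had 7414, 8098 and 8794 in deleted cells, against 7445, 8417 and 8586 in controls. The difference was -0.01, with a 95% interval of -0.25 to 0.23 without the block and -0.16 to 0.14 with it. The array measures RNA, so the amount and location of the protein, through which the pathway is regulated, were not seen. Axin1, the scaffold of the destruction complex, was at 0.01 ± 0.10. Axin2, the inducible axin often used as a reporter of β-catenin activity, had 427.2, 366.7 and 580.8 in deleted cells, against 484.2, 429.7 and 542.5 in controls. It was lower by 0.18 and 0.23 in experiments 18 and 19 and higher by 0.10 in experiment 20. The mean of -0.10 had a 95% interval of -0.57 to 0.37 without the block and -0.32 to 0.11 with it.

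The 2 naked cuticle genes, whose products bind Dishevelled and dampen the signal, pointed opposite ways. Nkd1 had 462.1, 614.9 and 1088 in deleted cells, against 364.8, 507.3 and 772.8 in controls. It was higher by 0.34, 0.28 and 0.49, and had the smallest p of the 55 members with the block. There the difference of 0.37 had an SE of 0.07, a 95% interval of 0.19 to 0.55 and a limma adjusted p of 0.159. The interval is not adjusted for the choice of this gene among 55. Nkd2 had 280.3, 239.6 and 363.0 in deleted cells, against 304.1, 278.6 and 423.8 in controls, lower by 0.12, 0.22 and 0.22. Its mean difference of -0.19 had an adjusted p of 0.951, or 0.248 with the block.

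The TCF/LEF factors, which carry β-catenin to DNA, had differences of -0.11 to 0.19. Lef1, usually an activator and itself a WNT target, had 1320, 1089 and 1651 in deleted cells, against 1140, 999.5 and 1516 in controls, higher by 0.21, 0.12 and 0.12. Its mean of 0.15 ± 0.21 had a limma adjusted p of 0.965, or 0.288 with the block. Tcf7 had 1894, 1424 and 1194 in deleted cells, against 1900, 1717 and 1196 in controls, with its 1 visible difference, -0.27, in experiment 19. Tcf7l1, the main repressor of the family in pluripotent cells, had 1456, 2861 and 2051 in deleted cells, against 1667, 2586 and 2465 in controls. Its directions were mixed, with a mean of -0.11 ± 0.29 and an SE of 0.10 with the block. Tcf7l2 had 1166, 1472 and 1941 in deleted cells, against 971.3, 969.9 and 2373 in controls. Like Fzd7 and Sfrp1 it was higher in experiments 18 and 19, by 0.26 and 0.60, and lower in experiment 20, by 0.29; without experiment 20 its difference was 0.43 with a limma adjusted p of 0.0749 with the block.

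Sp5, a zinc-finger factor that is a direct WNT target and limits the response, had 211.3, 213.3 and 656.1 in deleted cells, against 205.7, 240.5 and 552.2 in controls. The sample of experiment 20 was the high one in both groups, and the mean difference was 0.04 ± 0.59 (limma adjusted p = 0.998). With the block the SE was 0.09 and the limma adjusted p 0.859.

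Some of the feedback genes were high together in both samples of experiment 20, and others were not. In its control, 8 members were over 1 log2 unit above the mean of the other 2 controls, beside 2.21% of all genes, and 0 were as far below. Against the geometric mean of experiments 18 and 19, in deleted cells and in controls in turn, the signal of experiment 20 was 15.1-fold and 15.2-fold for Lgr5, 7.1-fold and 4.79-fold for Dkk1, 3.08-fold and 4.32-fold for Fzd8, 1.56-fold and 3.25-fold for Sfrp1. By the same measure it was 4.91-fold and 3.1-fold for Wnt8a, 3.09-fold and 2.48-fold for Sp5, 1.48-fold and 2.44-fold for Tcf7l2, 1.44-fold and 2.3-fold for Fzd5. In deleted cells 5 of the 8 were also over 1 log2 unit higher, and 44 of the 55 members had the same sign of offset in both groups, beside 73.2% of all genes. Among other feedback genes the signal of experiment 20 was 2.04-fold in deleted cells and 1.8-fold in controls for Nkd1, and 1.47-fold and 1.19-fold for Axin2. For Znrf3 it was 1.05-fold in deleted cells and 0.9-fold in controls, for Notum 1.07-fold and 1.05-fold, and for Rnf43 0.77-fold and 0.68-fold, so these 3 were not high there. Each offset rests on 1 array per group and has no test. For 47 of the 55 members the range of the 3 controls exceeded the size of the deletion difference, beside 85.5% of all genes, which is the same share, and 9 had controls that differed by more than 1 log2 unit, beside 7.4% of all genes.

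**Figure D4:**
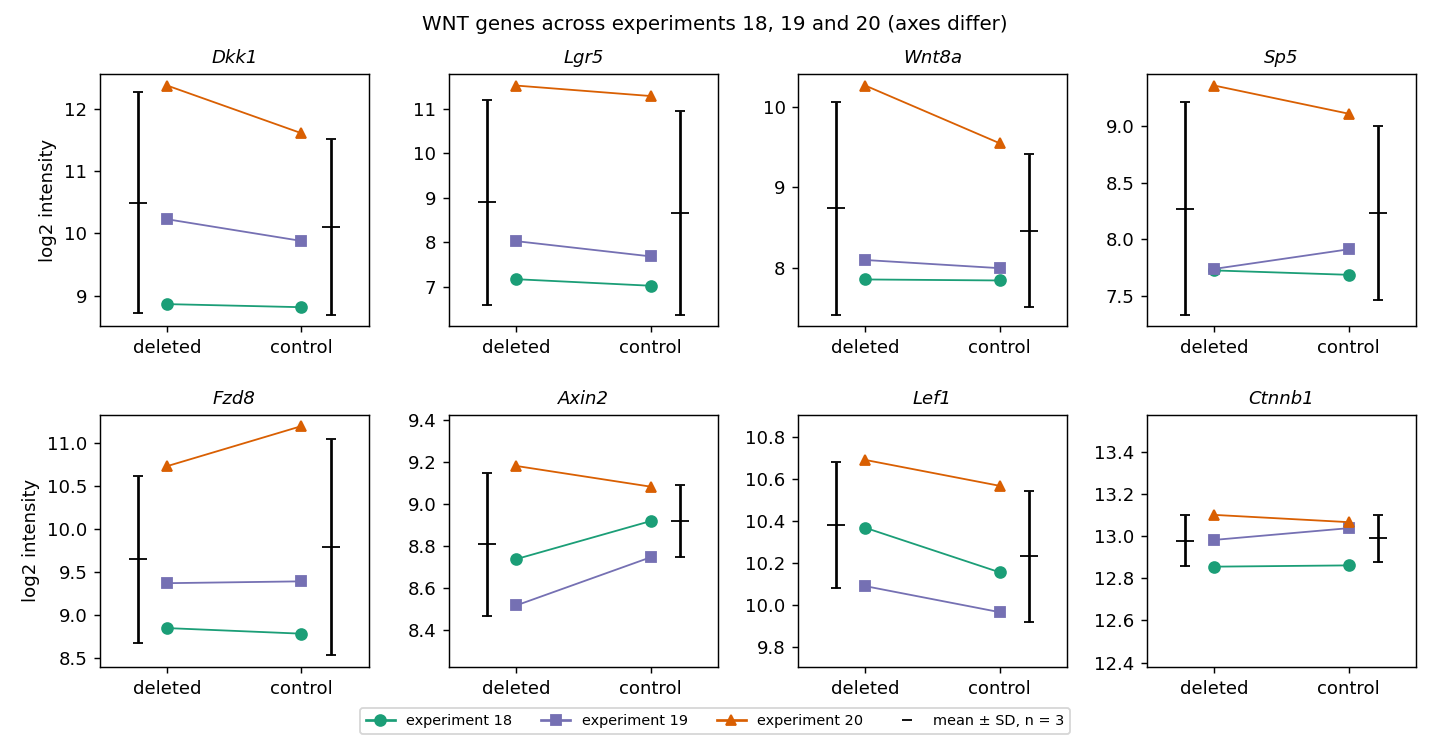
Log2 intensity (y axis, scale differs by panel) of 8 WNT genes in deleted and control samples, with lines joining the 2 samples of an experiment and black bars for mean ± SD, n = 3. Experiment 20 is highest in both groups for all 8 genes. It stands out far more for Dkk1, Lgr5, Wnt8a, Sp5 and Fzd8 than for Axin2, Lef1 and Ctnnb1. Ctnnb1 stays between 7414 and 8794 in intensity.

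**Figure D5:**
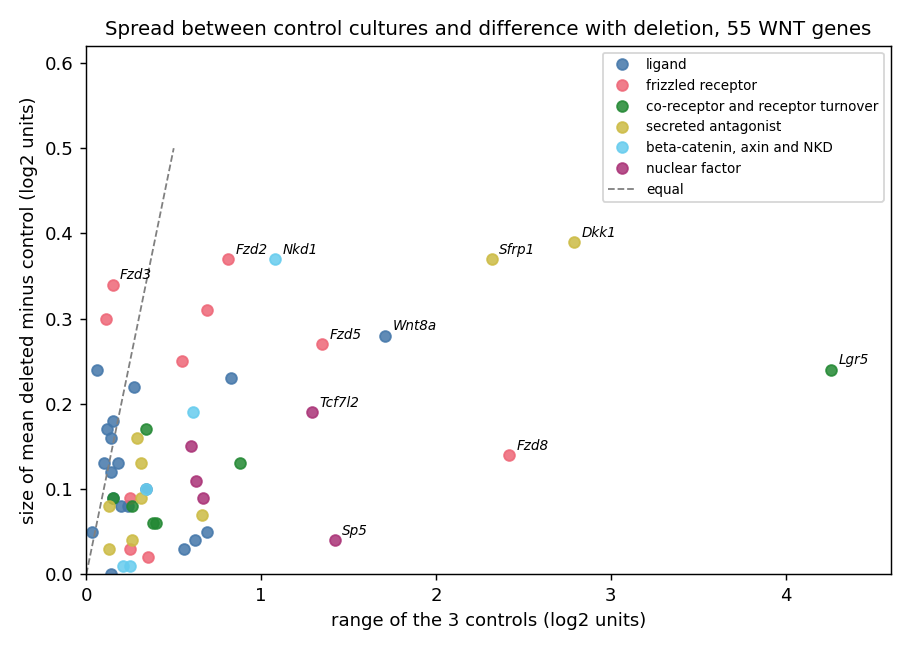
Size of the mean difference between deleted and control cells (y axis, log2 units) against the range of the 3 controls (x axis, log2 units) for the 55 WNT genes, coloured by role, with a dashed line of equality. Of the 55 genes, 47 lie below the line, where 85.5% of all genes also lie, and Lgr5, at a control range of 4.26, lies farthest to the right.

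The upstream DNA of 4 members, picked with their values known, is shown. Sp5 and Dkk1 are feedback genes that were over 1 log2 unit higher in both samples of experiment 20. Nkd1 is a feedback gene that was less raised there, 2.04-fold in deleted cells and 1.8-fold in the control. Fzd7 is a receptor whose difference had the opposite sign there. Lgr5, the member most raised in experiment 20, is not shown. Each line gives the 250 bases before the annotated transcription start in RefSeq (GRCm38.p6), 5′ to 3′ on the strand of the gene, and capitals mark each CTTTGA or its reverse complement TCAAAG, the core of the TCF/LEF binding sequence. The regions are chr2:70474673-70474922 on the plus strand for Sp5, chr19:30549497-30549746 on the minus strand for Dkk1, chr8:88527383-88527632 on the plus strand for Nkd1 and chr1:59481897-59482146 on the plus strand for Fzd7.
Sp5: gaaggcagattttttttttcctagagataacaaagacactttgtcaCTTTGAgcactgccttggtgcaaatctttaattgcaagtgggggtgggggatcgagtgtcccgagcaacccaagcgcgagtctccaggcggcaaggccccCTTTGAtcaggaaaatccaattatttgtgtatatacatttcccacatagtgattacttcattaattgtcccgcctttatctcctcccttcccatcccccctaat
Dkk1: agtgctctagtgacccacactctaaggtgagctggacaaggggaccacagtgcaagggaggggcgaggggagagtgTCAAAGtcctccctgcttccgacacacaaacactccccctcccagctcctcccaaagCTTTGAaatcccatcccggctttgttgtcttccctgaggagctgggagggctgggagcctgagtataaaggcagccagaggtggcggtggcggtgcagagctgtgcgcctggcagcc
Nkd1: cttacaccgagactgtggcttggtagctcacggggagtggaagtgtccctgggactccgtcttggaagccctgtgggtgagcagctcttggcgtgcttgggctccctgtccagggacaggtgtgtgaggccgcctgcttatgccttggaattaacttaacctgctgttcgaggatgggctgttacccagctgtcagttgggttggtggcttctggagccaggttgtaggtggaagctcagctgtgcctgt
Fzd7: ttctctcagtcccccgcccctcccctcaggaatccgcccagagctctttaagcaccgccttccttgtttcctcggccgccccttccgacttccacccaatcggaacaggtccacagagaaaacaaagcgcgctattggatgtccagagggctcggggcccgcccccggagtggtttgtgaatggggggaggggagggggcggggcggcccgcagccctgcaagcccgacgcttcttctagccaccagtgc
Sp5 and Dkk1 each held 2 matches. In Sp5 the match nearest the start began 104 bases before it and formed part of the longer form CTTTGATC, and the other began 204 bases before it. In Dkk1 the matches began 174 and 117 bases before the start. The windows of Nkd1 and Fzd7 held 0. RefSeq promoters were found for 37 of the 55 members, and 6 of these, Dkk1, Fzd1, Lef1, Sp5, Wnt11 and Wnt5b, had the 6-base core on either strand in at least 1 of their promoters. Counted by promoter, that was 12.8% of member promoters and 13.8% of all 32851 promoters. The longer CTTTGATC, which contains the core, was in 3 of the 47 member promoters, 6.38%, and in 0.801% of all promoters. Lgr5, Fzd8, Sfrp1, Wnt8a, Tcf7l2 and Fzd5, also high in the control of experiment 20, were not among the 6, and some may have had no promoter here. A link of the core with the signal in experiment 20 was not tested. A match is a run of letters and not evidence of binding.

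The wider pathway was described through 5 lists, with 104 of 109 listed genes measured. Of these 104, 0 passed in either direction with or without the block. In all 3 experiments 28 were higher and 24 lower in deleted cells, beside 15.2% and 28.3% of all genes. Among genes at or above the median signal, where most of the 104 lay, the shares were 23.3% and 21.6%. The counts of the 5 lists below stand beside the same shares. The median difference of the 104 was 0.02. Among 19 transducers and destruction complex genes 4 were higher and 4 lower in all 3. Cby1, an antagonist of β-catenin, was at -0.21 ± 0.09, and Amer1 (Fam123b on the array), a scaffold of the destruction complex, at 0.20 ± 0.17. Gsk3b, the kinase of that complex, was at -0.00.

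Among 24 genes for secretion, agonists and other receptors 8 were higher and 6 lower in all 3. Wls, the carrier that brings WNT proteins to the cell surface, had 692.5, 760.3 and 1455 in deleted cells, against 554.2, 534.3 and 823.1 in controls. It was higher within each experiment, by 0.32, 0.51 and 0.82, and the mean of 0.55 ± 0.33 had a limma adjusted p of 0.861, or 0.161 with the block. Cer1, a secreted antagonist of Nodal, BMP and WNT, was at 0.42 ± 1.07, with an SE of 0.12 with the block. Without experiment 20 and with the block it was called higher, at 0.59 with a limma adjusted p of 0.0237, beside 1.55% of all genes called higher.

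In the planar polarity and calcium branch 7 of 18 genes were higher and 3 lower in all 3. Prickle1 and Prickle2, core planar polarity genes, were both higher in all 3. Prickle1 had 1897, 1695 and 1536 in deleted cells, against 1288, 1321 and 1258 in controls, a difference of 0.40 ± 0.09 without overlap between groups (limma adjusted p = 0.824, or 0.159 with the block). Prickle2 was at 0.38 ± 0.19 with an adjusted p of 0.837, or 0.15 with the block. Without experiment 20 and with the block Prickle1 was called higher, at 0.46 with a limma adjusted p of 0.0454, beside 1.55% of all genes called higher. Nuclear coactivators and corepressors were balanced, with 4 of 19 higher and 4 lower in all 3. Of the Groucho family of corepressors, Tle4 was at 0.26 ± 0.11 and the short member Aes at -0.24 ± 0.09.

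Of 24 reported WNT target genes, 5 were higher and 7 lower in all 3 experiments. The brachyury gene T, a streak gene activated by WNT3, had 1012, 1200 and 11797 in deleted cells of experiments 18, 19 and 20, against 347.8, 271.1 and 7004 in controls. It was higher by 1.54, 2.15 and 0.75, and the mean of 1.48 ± 1.59 had a limma adjusted p of 0.945, or 0.152 with the block. Without experiment 20 and with the block it was called higher, at 1.84 with a limma adjusted p of 0.00566, beside 1.55% of all genes called higher. Id2 was lower in all 3, by 0.30, 0.32 and 0.44. The streak genes Mixl1 and Eomes had mixed directions: Mixl1 was at -0.23, 0.38 and -1.46 in experiments 18, 19 and 20 and Eomes at -0.22, 0.19 and -0.89.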

How the data were processed

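Each of the 3 Dicer-deleted and 3 control RNA samples had its own MoGene 1.0 ST array (Affymetrix). RMA values came from Expression Console 1.2, per the submitters' processing notes. Probe sets carry an mm9 annotation, per the file headers. The authors deposited a linear intensity per probe set, called raw in the header although the arrays have nearly equal medians, and a log2 value from which the probe set's median over the 6 arrays had been subtracted. A general shift in RNA content cannot be seen after RMA, and signals of different probe sets do not compare transcript amounts. No detection calls were used, and the number of arrays limits the precision.

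Levels used here are the deposited log2 values with that median added back; the values of the deposited series table were the same. Of 28856 probe sets, 22439 named 1 symbol, and 9 of these had several gene identifiers and were left out. The probe set of highest mean stood for each of 20193 genes. The test was limma 3.58.1 under R 4.3.3, by lmFit then eBayes, with no covariate beside the group. P-values were adjusted by Benjamini-Hochberg over the 20193 genes, and an adjusted p under 0.05 was called. The SE is that of this fit unless the block is named. Without the block the SE includes the spread between experiments, so it is wide where the cultures differed. Intervals are not adjusted for the number of genes. The members, the lists and the rule for named genes were chosen with earlier results of these data known. The rule gave values in every sample for 23 members: those with a mean difference of at least 0.3 and the same direction in all 3 experiments, the 8 with the smallest p with the block, the brightest of each role, the 5 with the widest control range, and 10 taken whatever their values (Ctnnb1, Axin2, Lef1, Tcf7, Tcf7l1, Tcf7l2, Sp5, Wnt3, Wnt8a and Dkk1). In each pathway list it gave the 2 genes with the smallest p with the block. Other members are given by range or were singled out after their values were seen. Genes singled out in this way include Lrp5, Lrp6, Lgr6, Rnf43, Znrf3, Axin1, Fzd4, Fzd9, Fzd10, Wnt5a, Gsk3b, Mixl1 and Eomes.

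Experiment numbers pair the samples, since the labels place 1 deleted and 1 control sample in each deletion experiment. Within an experiment, both arrays deviated together from their group means, with correlations across genes of 0.83, 0.61 and 0.80. The model fit was tested on simulated data with 200 of 20193 genes changed by a known amount. Of changes of 1.7 log2 units 78.9% were recovered without the block and 90.2% with it. Of changes of 0.6, above the largest difference of any member, 0% were recovered. In the data the largest difference was that of Dicer1, -1.74, and with the block it missed the threshold (limma adjusted p = 0.0666). Many large changes make the adjusted threshold easier to pass, so the recovered shares do not carry over to the data. The alternatives were the block, another centring or quantile normalization, a filter on dim genes, the mean of all probe sets, a robust trend, and leaving out each array or experiment. Plots were made in matplotlib 3.10.9 under Python 3.11.15.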

Additional observations from a re-analysis of the deposited data

How the results depend on the processing

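The number of WNT members past the threshold was 0 under each alternative but 1: without experiment 20 and with the experiment as a block it was 2 (Fzd7 and Sfrp1), and the number of the 104 other pathway genes was 3 (Cer1, Prickle1 and T). That fit called 388 of all 20193 genes, 1.92%. The same fit without experiment 18 or without experiment 19 called 0 genes, and so did the block with all arrays. The block changed no call among members or pathway genes and ended that of Dicer1, with an adjusted p of 0.0666. That call was also lost with trend and robust moderation (0.107), without any single array (0.226 to 0.729), without any experiment when no block was used (0.729 to 1), and with the block without experiment 18 (0.472) or 19 (0.428); its difference stayed between -1.81 and -1.66. The median difference of members, -0.03, was -0.01 after a further quantile normalization, -0.04 with the mean of all probe sets, and 0.06 over the 29 members at or above the median signal. It was -0.01 without experiment 18 and -0.02 without experiment 19, with or without the block. Leaving out 1 array at a time gave medians between -0.09 and 0.02 and leaves the baseline of 1 experiment unpaired. Several named members turned sign over the alternatives. Among them were members with wide control ranges, Lgr5 between -1.07 and 1.55, Dkk1 between -0.55 and 1.2 and Wnt8a between -0.49 and 0.82. Ctnnb1, with a control range of 0.21, also turned, between -0.07 and 0.05. Without the whole of experiment 19, 3 named genes turned, and without experiment 20, 2 did. Fzd2, Fzd3, Fzd6, Nkd1, Wnt3, Wnt3a, Wnt10a and Nkd2 kept their direction under all alternatives run for them. Further normalization and centring turned no named gene.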
